A study of Mus musculus with 36 samples.

Results

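The 7 globin genes described here code for the protein chains of hemoglobin. Hbb-y (εy), Hbb-bh1 (βh1), Hbb-bs and Hbb-bt (both adult β) lie in the β-globin cluster, and Hba-x (ζ), Hba-a1 and Hba-a2 (both adult α) lie in the α-globin cluster. They are a gene family picked by symbol, with earlier results of these data known. They are 7 of the 14846 genes that the 5 tables hold between them. All 7 were measured in both E12.5 tables and 6 in each of the 3 later tables, where Hbb-bh1 was not analysed.

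The 36 RNA-seq libraries of embryonic mouse hearts belong to 5 experiments. Whole E12.5 hearts of Jag1flox;Nfatc1-Cre embryos (4 libraries) and of Dll4flox;Nfatc1-Cre embryos (2 libraries) were each compared with 4 WT libraries of their own, and each library pooled 4 embryos. At E15.5, ventricles of Dll4flox;Cdh5-CreERT2 embryos, given tamoxifen at E12.5, and of Dll4GOF;Tie2-Cre embryos (3 libraries each, 3 embryos a pool) were each compared with 4 WT libraries. At E16.5, ventricles of single Efnb2flox;Nfatc1-Cre embryos (4 libraries) were compared with 4 of single WT embryos, numbered 1, 2, 3 and 5. Nfatc1-Cre is active in endocardium and its descendants, Cdh5-CreERT2 in vascular endothelium after tamoxifen, and Tie2-Cre in endothelium and in blood lineages. Dll4GOF is an overexpression cassette in the Rosa26 locus, made from 1 embryonic stem cell clone. Whether WT embryos also received tamoxifen is not given in the sources used here. The authors discarded a further 2 Dll4flox;Nfatc1-Cre samples, partly on their Dll4 level, and these are not analysed here. Stage goes together with the tissue dissected, the RNA extraction kit and the pool size, so these cannot be told apart.

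Blood is carried into a heart sample inside its vessels and chambers, and red cells are full of globin mRNA. In the mouse, primitive red cells come from the yolk sac and use the embryonic globins Hbb-y, Hbb-bh1 and Hba-x together with adult α-globin. Definitive red cells come later from the fetal liver and use Hbb-bs, Hbb-bt, Hba-a1 and Hba-a2. The replacement of one kind of red cell by the other, together with switching inside maturing primitive cells, is the hemoglobin switch. Hba-a1 and Hba-a2 are therefore shared by both kinds of cell, whereas Hbb-y and Hba-x mark the primitive lineage. In bulk RNA, fewer cells of a type and less RNA per cell cannot be told apart.

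In each cluster the embryonic genes stand before the adult ones in the direction of transcription. On GRCm38 chromosome 7, minus strand, the annotation places Hbb-y at 103851749 to 103853216, Hbb-bh1 at 103841637 to 103843164, Hbb-bs at 103826534 to 103828096 and Hbb-bt at 103812524 to 103813996. On chromosome 11, plus strand, Hba-x lies at 32276400 to 32278116, Hba-a1 at 32283511 to 32284465 and Hba-a2 at 32296489 to 32297298. Their principal transcripts are between 554 bases (Hba-a2) and 801 bases (Hba-x) long. Levels of different genes were compared per length, except where a share of reads or a summed level is named.

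The promoters are shown to set the embryonic genes, whose levels differed most between stages, beside the adult ones. A RefSeq promoter was matched for 6 of the 7 genes. Each line gives the 150 bases before the RefSeq start (GRCm38.p6), in the direction of the gene. Capitals mark matches, on either strand, to 7 short motifs. CCAAT is known from sites of the factor NF-Y. CACCC, and the longer form CCACACCC that contains it, is known from sites of KLF-type factors. AGATAA belongs to GATA factors in the same way. TGATAA is a related form of that motif. TGACCA is known from sites of nuclear receptors, and may overlap CCAAT. The letters TATAAA are known from sites of the TATA-binding protein.
Hbb-y (chr7:103853208-103853357, minus strand): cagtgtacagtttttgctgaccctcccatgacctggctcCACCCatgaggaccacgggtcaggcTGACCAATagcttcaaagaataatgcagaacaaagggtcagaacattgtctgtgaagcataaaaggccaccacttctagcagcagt
Hbb-bs (chr7:103827929-103828078, minus strand): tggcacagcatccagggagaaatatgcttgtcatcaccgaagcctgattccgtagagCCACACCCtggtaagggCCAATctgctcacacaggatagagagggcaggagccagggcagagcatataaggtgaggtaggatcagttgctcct
Hbb-bt (chr7:103813924-103814073, minus strand): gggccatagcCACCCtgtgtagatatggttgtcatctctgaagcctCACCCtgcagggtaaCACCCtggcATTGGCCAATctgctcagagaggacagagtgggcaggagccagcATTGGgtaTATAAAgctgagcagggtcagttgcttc
Hba-x (chr11:32276450-32276599, plus strand): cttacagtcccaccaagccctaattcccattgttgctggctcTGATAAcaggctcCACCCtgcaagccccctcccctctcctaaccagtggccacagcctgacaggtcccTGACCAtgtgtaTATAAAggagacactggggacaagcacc
Hba-a1 (chr11:32283522-32283671, plus strand): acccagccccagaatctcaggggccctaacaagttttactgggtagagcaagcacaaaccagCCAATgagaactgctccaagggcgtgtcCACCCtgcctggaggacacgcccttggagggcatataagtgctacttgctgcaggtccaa
Hba-a2 (chr11:32296342-32296491, plus strand): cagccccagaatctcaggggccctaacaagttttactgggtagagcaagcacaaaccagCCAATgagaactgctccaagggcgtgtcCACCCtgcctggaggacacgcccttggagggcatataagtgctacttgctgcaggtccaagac

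All 6 promoters held CACCC, and 5 of the 6 held CCAAT, the exception being Hba-x. Over all 32851 promoters of the RefSeq table, read from 250 bases before to 50 after the start, 57.5% held CACCC and 37.4% held CCAAT. The nuclear receptor motif TGACCA was found in the embryonic Hbb-y and Hba-x and in none of the 4 adult promoters, against 13.6% of all promoters. In Hbb-y it overlapped the CCAAT match. CCACACCC was found in Hbb-bs alone, against 3.56% of all promoters, and TATAAA in Hbb-bt and Hba-x, against 13.6%. In the full 300-base window, TGATAA was found in Hbb-y, Hba-x, Hba-a1 and Hba-a2 (9.05% of all promoters) and AGATAA in Hbb-bs (11.2%). The upstream stretches of Hba-a1 and Hba-a2 were identical over 147 of 147 aligned bases, whereas those of Hbb-bs and Hbb-bt matched at 109 of 148. These are letter matches, and binding was not measured.

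The embryonic globins were the globins that differed most between stages in WT hearts. Values are normalized CPM, read counts relative to a library size that the authors adjusted, scaled within each table, so levels of different stages stand side by side with no test. Hbb-y averaged 4307 in 8 WT libraries at E12.5 (range 2842 to 5944), 37.5 in 8 WT libraries at E15.5 (17.3 to 67.6) and 1.66 in 4 WT libraries at E16.5 (0.561 to 3.28). Hba-x averaged 893 (511 to 1848), 13.3 (8.71 to 24.5) and 1.45 (0.871 to 2.21) in the same order. The ranges of the 3 stages did not overlap for either gene. The Hbb-y mean at E12.5 was 115 times that at E15.5, and the E15.5 mean was 22.7 times that at E16.5, although only 1 day separates those stages. For Hba-x the ratios were 67.4 and 9.15. Hbb-bh1 averaged 204 at E12.5 (72.8 to 449).

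The adult globins did not share this pattern, and all 4 were abundant at every stage. Hbb-bs averaged 1130.3, 2009 and 1875 in WT hearts of the 3 stages, youngest first, and Hbb-bt averaged 439, 888 and 606. Their ranges overlapped between stages. Hba-a1 averaged 3402, 958 and 1222, with E12.5 libraries (2172 to 5743) above every later one (677 to 1437). Hba-a2, the neighbouring copy, averaged 2192, 2454 and 1745, with overlapping ranges.

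**Figure D1:**
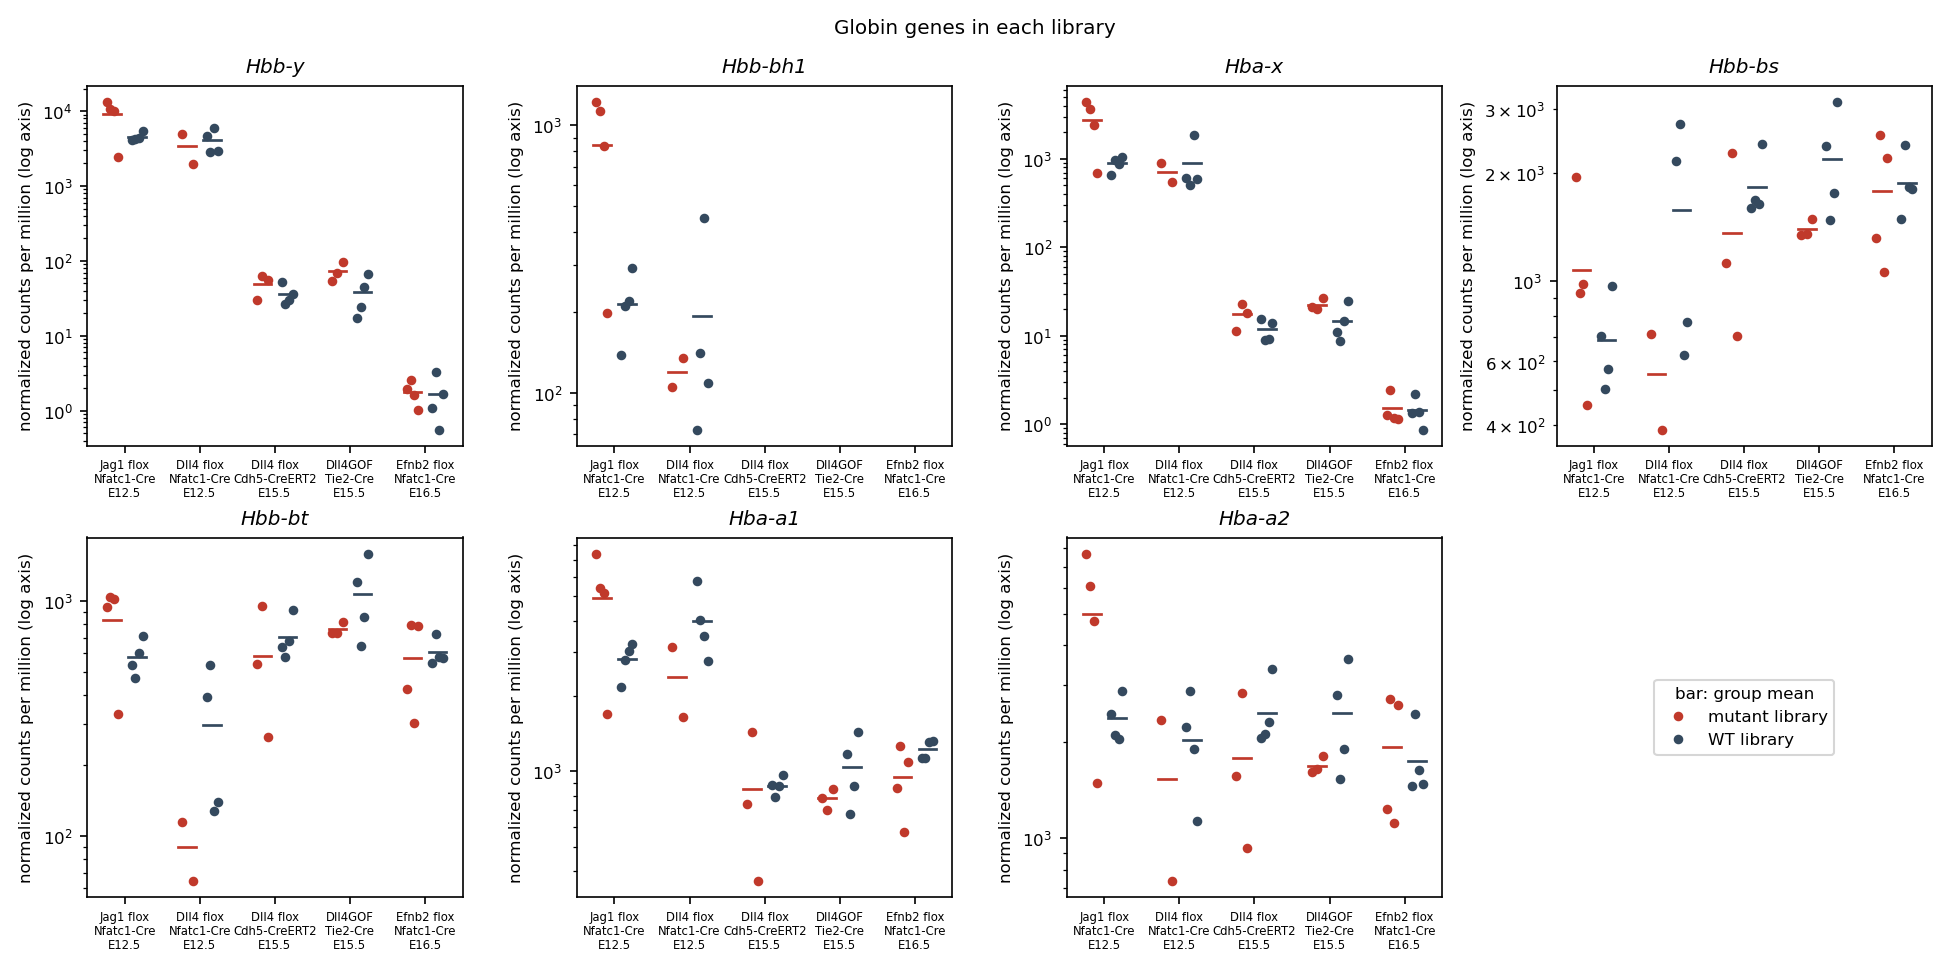
Each panel plots 1 globin gene as normalized CPM on a log axis, with 1 point per library, mutant libraries in red left of their WT libraries in dark blue, and bars at the group means. Hbb-y and Hba-x stand lower at each later stage, from left to right, with WT means of 4307, 37.5 and 1.66 for Hbb-y, whereas the 4 adult globins stay within a much narrower band.

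Shares within a library do not depend on how a table was scaled. The embryonic share was taken as Hbb-y and Hbb-bh1 reads per base of transcript, as a percentage of all 4 β-like genes. In WT hearts at E12.5 it was 78.3, 82.6, 80.3 and 78.0% in the Jag1 experiment and 64.9, 48.0, 89.6 and 77.0% in the Dll4 experiment. At E15.5 it was 2.35, 1.18, 1.3 and 1.12% in the WT libraries of the Cdh5-CreERT2 experiment and 0.494, 1.15, 1.76 and 1.45% in those of the Dll4GOF experiment. At E16.5 it was 0.0513, 0.105, 0.0216 and 0.0703% in the WT libraries. The ranges of the stages did not overlap, at 48.0 to 89.6%, 0.494 to 2.35% and 0.0216 to 0.105%, youngest first. Within each stage the share still varied widely between libraries. At E12.5 both ends of the range were WT hearts of the Dll4 experiment. Leaving out Hbb-bh1, an alternative chosen after the data were seen since the gene was not analysed in the later tables, gave a mean of 74.1% over the 8 E12.5 libraries, against 74.8% with it.

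Among α-like globins, the Hba-x share (of Hba-x, Hba-a1 and Hba-a2, per length) averaged 11.4 ± 5% (SD, n = 8) in WT hearts at E12.5, 0.286 ± 0.0799% (n = 8) at E15.5 and 0.0348 ± 0.00928% (n = 4) at E16.5. The α to β ratio, per length and over all members, lay between 0.939 and 1.17 over all 14 E12.5 libraries, 1.13 and 1.5 at E15.5, and 1.23 and 1.36 at E16.5, so every E16.5 library was above every E12.5 one. By mean level per length, Hbb-y ranked first of the 7 genes in WT hearts in both E12.5 tables and Hba-a2 ranked first in all 3 later tables. Some of these leads lay within the spread (SD, n = 4 each). In the Dll4 E12.5 WT libraries Hbb-y was at 6435 ± 2348 and Hba-a1 at 5722 ± 1817 per kilobase. At E16.5 Hba-a2 was at 3150 ± 839 and Hbb-bs at 2986 ± 599. At E12.5, Hba-a2 and Hba-a1 filled the next places, with 4260 ± 690 and 4011 ± 655 per kilobase in the Jag1 WT libraries (SD, n = 4), a gap within their spread. Hbb-bh1 was last in both E12.5 tables. In the later tables Hbb-bs came after Hba-a2, and Hbb-y and Hba-x took the last places.

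**Figure D2:**
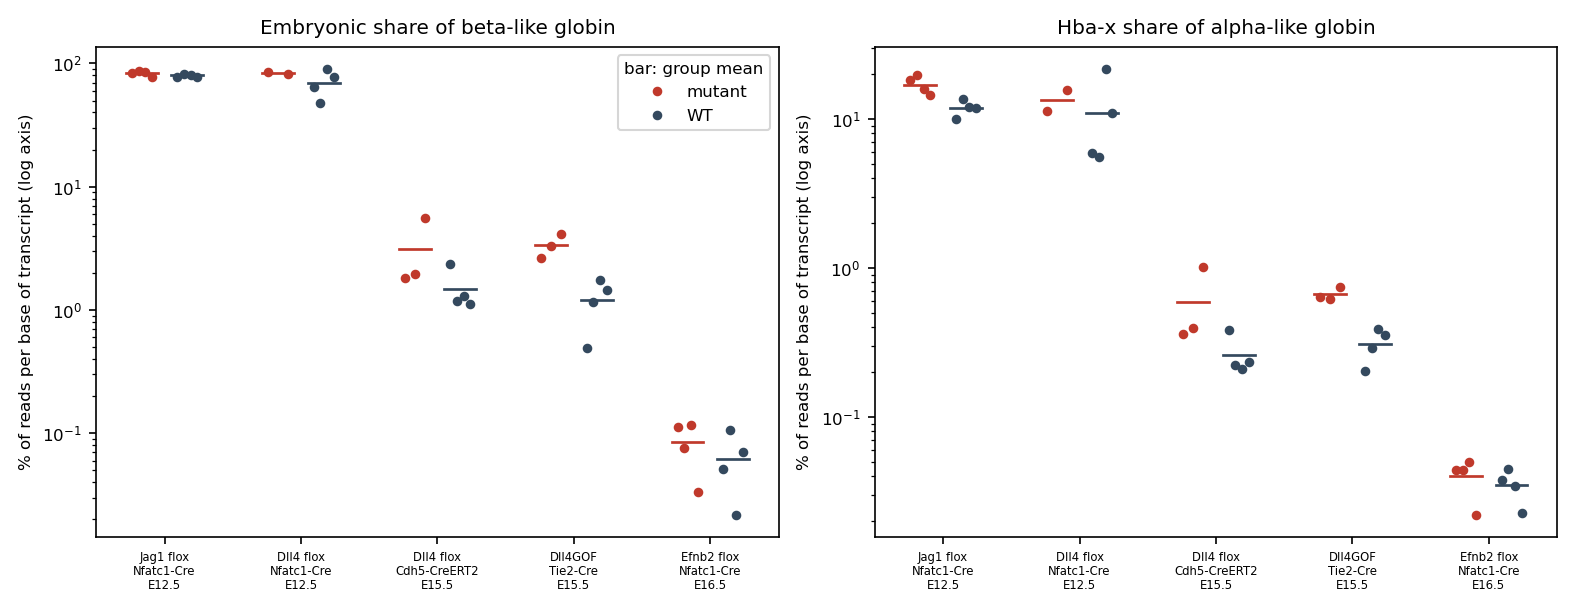
The left panel plots the embryonic share of β-like globin and the right panel the Hba-x share of α-like globin in each library, both as percent of reads per base on a log axis, with mutant libraries in red left of WT in dark blue and bars at group means. In the Dll4GOF experiment the 3 mutant libraries (2.64 to 4.10% and 0.621 to 0.745%) lie above all 4 WT libraries (0.494 to 1.76% and 0.203 to 0.389%).

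Reads behind these values varied with stage. Recovered library totals were 12914259 to 28464430 counts in the Jag1 experiment, 18954368 to 23784398 in the Dll4 E12.5 experiment, 8262124 to 14774561 with Cdh5-CreERT2, 14392366 to 19876031 with Dll4GOF and 7827496 to 9890333 at E16.5. Hbb-y rested on 42020 to 168253 reads a library at E12.5, on 277 to 1922 at E15.5 and on 5 to 30 at E16.5. The exact 95% binomial interval of the Hbb-y share of β-like reads was up to 0.574% of the share to either side at E12.5, up to 11.9% at E15.5 and up to 100% at E16.5. These intervals cover counting error only.

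Globins varied far more between libraries of 1 group than most genes. Over the 32 combinations of member and experiment, the residual SD of the log2 values was 0.363 to 0.983, at percentiles 92.3 to 99.3 among all genes of the same table. The median gene had a residual SD of 0.104 to 0.136. Each change below is on the log2(value + 0.5) scale, mutant minus WT, from limma, and calls were made where the p adjusted over all genes of the table was under 0.05.

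In Jag1flox;Nfatc1-Cre hearts, 3 of the 4 mutant libraries had more globin mRNA than WT hearts and 1 had less. Jag1, the Notch ligand deleted there, was at 21.1, 25.9, 20.9 and 27.4 in mutants 1 to 4 and at 45.7, 45.3, 39.3 and 39.1 in WT 1 to 4, so mutant 4 had the most Jag1 of the mutants but less than every WT library. None of the 7 globins was called, with 1.75% of the 13982 genes called. At an unadjusted p under 0.05 there were 3 (Hbb-bh1, Hba-x and Hba-a2), and 3315 of all genes. On recovered counts, edgeR called Hbb-bh1 (among 331 of all genes), DESeq2 called Hbb-bh1 and Hba-x (among 1108 of all genes), and limma voom called 0 globins (211 of all genes).

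Among embryonic globins, Hbb-bh1, an early embryonic β-like chain, was at 1219, 1135, 838 and 199 in mutants 1 to 4 and at 138, 211, 220.2 and 291 in WT 1 to 4. Mutants 1 to 3 were above every WT library and mutant 4 lay within the WT range. The log2 fold change was 1.74 (SE 0.47, 95% interval 0.71 to 2.76, adjusted p = 0.0689). Hba-x, the embryonic α-like chain, was at 4347, 3687, 2395 and 688 in mutants and at 664, 982, 874 and 1056 in WT. It followed the same order, with a log2 fold change of 1.36 (SE 0.45, 95% interval 0.39 to 2.34, adjusted p = 0.107). Hbb-y, the main embryonic β-like chain at this stage, was at 13087, 10606, 9986 and 2428 in mutants and at 4176, 4194, 4332 and 5461 in WT. Here mutant 4 was below every WT library, and the log2 fold change was 0.76 (SE 0.41, 95% interval -0.14 to 1.66, adjusted p = 0.287).

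Among adult globins, Hba-a2 was at 7667, 6102, 4726 and 1492 in mutants and at 2433, 2095, 2041 and 2871 in WT (log2 fold change 0.87, SE 0.39, adjusted p = 0.204). Hba-a1 was at 7394, 5409.9, 5176 and 1686 in mutants and at 2172, 2790.2, 3026 and 3227 in WT (0.64, SE 0.35, adjusted p = 0.292). Both copies of adult α-globin thus had mutants 1 to 3 above and mutant 4 below all WT libraries. Hbb-bt was at 940.2, 1039.8, 1021 and 332 in mutants and at 537, 469, 602 and 712 in WT (0.40, SE 0.30, adjusted p = 0.437). Hbb-bs was at 1945, 931, 984 and 455 in mutants and at 707, 502, 571 and 973 in WT (0.51, SE 0.34, adjusted p = 0.385). Hbb-bs was the exception among the 7, as WT 4 exceeded mutant 2.

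Leaving out mutant 4 changed these calls, since 6 of the 7 globins were then called, all higher in mutants. The log2 fold changes became 2.33 for Hbb-bh1 (adjusted p = 0.000119), 1.94 for Hba-x (adjusted p = 0.000268), 1.31 for Hbb-y (adjusted p = 0.000366), 1.37 for Hba-a2 (adjusted p = 0.00103), 1.09 for Hba-a1 (adjusted p = 0.00331) and 0.80 for Hbb-bt (adjusted p = 0.00402). Hbb-bs was not called at 0.86 (adjusted p = 0.0914). The library was left out after its values were known, and 416 of all genes were called without it, against 245 with it. With all libraries, the groups overlapped for all 7 globins, with 13.8% of all genes free of overlap.

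The make-up of the globin mRNA separated the groups where the amount did not. The Hbb-bh1 share of Hbb-bh1 and Hbb-y, per length, was 8.77, 9.95, 7.97 and 7.79% in mutants 1 to 4 and 3.30, 4.93, 4.99 and 5.22% in WT 1 to 4. The Hba-x share of α-like globin was 18.2, 19.7, 15.8 and 14.4% in mutants and 9.95, 13.6, 12.0 and 11.9% in WT. In both measures all 4 mutant libraries were above all 4 WT libraries, mutant 4 included, although its summed globin mRNA was the lowest. The Hba-x to Hbb-y ratio behaved likewise, at 0.238 ± 0.0387 in mutants and 0.156 ± 0.0244 in WT (SD, n = 4 each). The embryonic share of β-like globin overlapped, at 83.1 ± 3.81% in mutants and 79.8 ± 2.12% in WT. WT libraries of the Dll4 experiment, also at E12.5, ranged from 5.53 to 21.5% in the Hba-x share, a range that holds all Jag1 mutants. Their Hba-x to Hbb-y ratio was 0.106 to 0.246, reaching into the range of the Jag1 mutants (0.190 to 0.275). Their Hbb-bh1 share was 1.61 to 7.24%, below every Jag1 mutant. In all, 3 of 8 such shares and ratios had groups without overlap in the Jag1 experiment. These measures share genes and were compared after earlier results were known, so they are a description and carry no test.

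Other genes of red cells followed the amount of globin in this experiment. Of 15 listed erythroid genes, 14 were in the table, 14 of 14 had a positive log2 fold change with a median of 0.91, and 2 rose. Hemgn, for a nuclear protein of erythroid cells, was 1 of these (2.37, adjusted p = 0.0438). Mutant 4 was below the WT mean in 12 of the 14 genes, and the summed list ranged from 197 to 926 in mutants and from 258 to 393 in WT. Of 9 heme synthesis genes 1 rose, Cpox for coproporphyrinogen oxidase (0.79, adjusted p = 0.0219), and none fell. Of 17 regulators of globin genes none was called. Bcl11a had the lowest adjusted p of these (log2 fold change 0.31, adjusted p = 0.0728). Klf1, the activator of adult β-globin and also on the erythroid list, reached 1.04 (adjusted p = 0.0999). Of 6 platelet genes, 6 had a negative fold change and Pf4, a platelet chemokine, fell by 0.63 on the log2 scale (adjusted p = 0.0390). How much blood each pool of hearts held was not measured, and its part in these values was not tested.

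**Figure D3:**
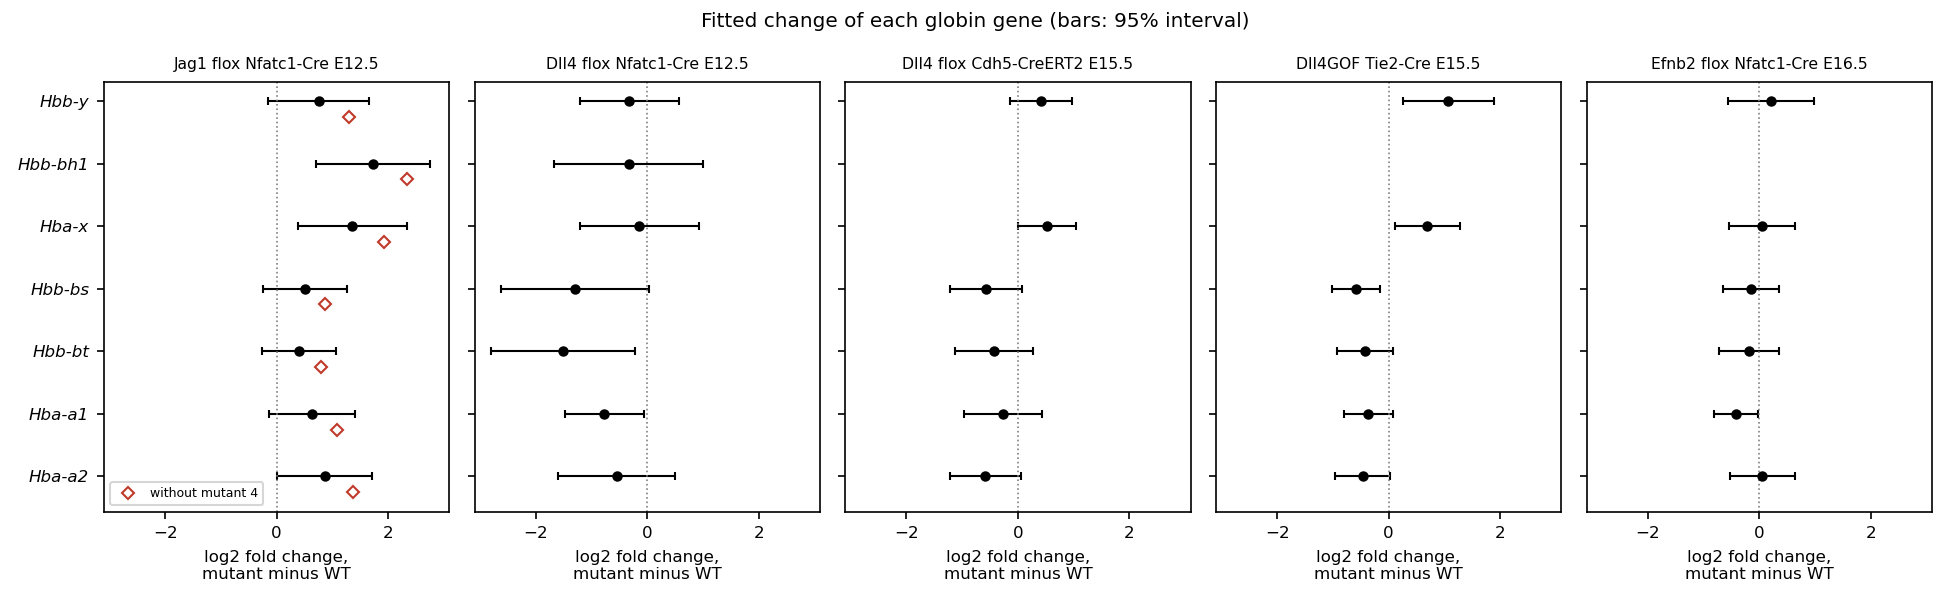
Points are the fitted log2 fold changes (mutant minus WT) of each globin in the 5 experiments, with bars for the 95% interval, and open red diamonds are the Jag1 values without mutant 4. All 7 points lie right of 0 in Jag1flox;Nfatc1-Cre hearts (0.40 to 1.74) and left of 0 in Dll4flox;Nfatc1-Cre hearts (-1.52 to -0.14), and in the 2 E15.5 experiments Hbb-y and Hba-x lie right of 0 and the adult genes left of it.

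In Dll4flox;Nfatc1-Cre hearts at E12.5, all 7 globins had a negative fold change and adult β-globin was the lowest relative to WT, but none was called (2.17% of the 14302 genes were). At an unadjusted p under 0.05 there were 2, Hbb-bt and Hba-a1, and 3056 of all genes, while edgeR, DESeq2 and limma voom called 0. Dll4, the deleted Notch ligand, was at 1.53 and 1.29 in the mutants, against WT values of 13.2 to 17.9. Hbb-bt was at 115 and 64.5 in mutants and at 389.5, 536, 128 and 139.8 in WT 1 to 4. It was the 1 globin of 7 without overlap, against 31.5% of all genes, with only 2 mutant libraries compared. Its log2 fold change was -1.52 (SE 0.56, 95% interval -2.81 to -0.23, adjusted p = 0.175).

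Hbb-bs was at 717 and 389 in mutants and at 2161, 2733, 624 and 771 in WT (log2 fold change -1.3, SE 0.58, adjusted p = 0.242). WT 3 was below mutant 1 here, and the 4 WT libraries fell into a high and a low pair for both adult β genes. Hba-a1 was at 3127 and 1643 in mutants and at 5743, 4012, 3483 and 2760.3 in WT (-0.77, SE 0.31, adjusted p = 0.203). Hba-a2 was at 2333 and 737 in mutants and at 2212, 2863, 1894 and 1129 in WT (-0.55, SE 0.46, adjusted p = 0.530).

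The embryonic globins of this experiment ranged widely within WT. Hbb-y was at 4879 and 1978 in mutants and at 4593, 2842, 5944 and 2915 in WT, with a log2 fold change of -0.32 (SE 0.39, adjusted p = 0.689). Hbb-bh1 was at 105 and 135 in mutants and at 72.8, 141, 449 and 108 in WT (-0.33, SE 0.59, adjusted p = 0.792). Hba-x was at 886 and 546 in mutants and at 615, 511, 1848 and 593 in WT (-0.14, SE 0.47, adjusted p = 0.895). WT 3 was the highest library for all 3 embryonic genes and the lowest WT library for both adult β genes. Without WT 3 the log2 fold changes of Hbb-bh1 and Hba-x turned to 0.20 and 0.28, and without mutant 2, which leaves 1 mutant library whose spread is taken from WT, those of Hbb-y, Hba-x and Hba-a2 turned to 0.33, 0.21 and 0.28.

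The embryonic share of β-like globin was 85.8 and 82.5% in Dll4flox;Nfatc1-Cre hearts, inside the WT range of 48.0 to 89.6%. Of 8 shares and ratios, 1 did not overlap, with 31.5% of all genes free of overlap in this comparison. It was the Hbb-bs share of Hbb-bs and Hbb-bt reads, at 85.8 to 86.2% in mutants and 83.0 to 84.7% in WT. The summed erythroid list was at 208 and 133 in mutants and at 266, 268, 560.3 and 217 in WT 1 to 4. This sum did not overlap either, by a narrow gap between mutant 1 and WT 4. Of the erythroid genes, 14 of 14 had a negative fold change with a median of -0.61, but none was called. Alas2, the erythroid enzyme that starts heme synthesis, was at 44.5 and 25.2 in mutants and at 87.9, 93.5, 80.7 and 48.0 in WT (-1.15, SE 0.29, adjusted p = 0.0740). All 6 platelet genes were negative as well, with a median of -1.10 and none called. The part of blood content in these values was not tested.

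The globin effects of the 2 E12.5 experiments were set against each other by the test of their difference, since each had its own WT libraries. Jag1 minus Dll4 was positive for all 7 globins, between 1.08 and 2.06 on the log2 scale, but none was called (adjusted p 0.202 to 0.433), with 0.0145% of the 13795 shared genes called. At an unadjusted p under 0.05 there were 4 of 7 and 2275 of all genes, and edgeR, DESeq2 and voom called 0. Without Jag1 mutant 4, 1 was called, Hba-a1 (adjusted p = 0.0491), with 39 of all genes called, against 2 with that library.

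At E15.5, embryonic globins were a minor part of globin mRNA. Dll4flox;Cdh5-CreERT2 ventricles, in which Dll4 was targeted in endothelium after E12.5, had more of the 2 embryonic and less of the 4 adult globins by fold change, none of them called (1.15% of the 13897 genes were). The count at an unadjusted p under 0.05 was 1 (Hba-x), and 1975 over all genes, and edgeR, DESeq2 and voom called 0. Dll4 was at 8.11, 20.7 and 9.53 in mutants 2, 3 and 4 and at 28.0, 23.2, 25 and 28.6 in WT 1 to 4, so mutant 3 was near WT in its target. Hbb-y was at 29.9, 62.6 and 55.5 in mutants and at 52.7, 26.6, 29.8 and 36.7 in WT (log2 fold change 0.41, SE 0.25, adjusted p = 0.508). Hba-x was at 11.2, 22.8 and 18.2 in mutants and at 15.3, 8.87, 9.09 and 13.9 in WT (0.53, SE 0.24, adjusted p = 0.346). All groups overlapped, with 13% of all genes free of overlap.

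The adult globins of this experiment were high in mutant 3 and low in mutant 4. Hbb-bs was at 1124, 2263 and 705 in mutants and at 1602, 1686, 1639 and 2402 in WT (log2 fold change -0.57, SE 0.30, adjusted p = 0.416). Hba-a2 was at 1564, 2830.1 and 931 in mutants and at 2049, 2114, 2303 and 3351 in WT (-0.58, SE 0.29, adjusted p = 0.399). Without mutant 3, the library with the most Dll4 left, both were called, Hbb-bs at -1.02 (adjusted p = 0.0122) and Hba-a2 at -0.99 (adjusted p = 0.0244). This library too was singled out after its values were known, and 574 of all genes were called without it, against 160 with it. Hbb-bt was at 538, 954 and 265 in mutants and at 637, 578, 675 and 918 in WT. Hba-a1 was at 739.6, 1434 and 364 in mutants and at 881, 788, 869 and 966 in WT. Without mutant 4, the fold changes of Hba-a1 and Hbb-bt turned to 0.24 and 0.053.

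The embryonic share of β-like globin was 1.81, 1.95 and 5.52% in Dll4flox;Cdh5-CreERT2 mutants, against 2.35, 1.18, 1.3 and 1.12% in WT. WT 1 exceeded mutants 2 and 3, and mutant 4 had the highest share of all E15.5 libraries. The Hba-x share was 0.358, 0.395 and 1.02% in mutants and 0.383, 0.222, 0.209 and 0.233% in WT. None of the 7 shares and ratios was free of overlap. Of 10 erythroid genes 1 rose, Slc4a1, for the anion exchanger of the red cell membrane (0.75, adjusted p = 0.0307). It was at 19.1, 19.0 and 22.5 in mutants and at 10.9, 12.3, 9.60 and 15 in WT, whereas the summed list overlapped, at 64.4 to 116 in mutants and 71.7 to 112 in WT.

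In Dll4GOF;Tie2-Cre ventricles, the embryonic share of globin mRNA was higher in all 3 mutant libraries than in every WT library. None of the 6 globins was called, and neither was any other gene (0% of 13737 by limma, 37 genes by DESeq2). At an unadjusted p under 0.05 there were 3 globins (Hbb-y, Hba-x and Hbb-bs) and 1280 of all genes, and edgeR, DESeq2 and voom called none of the 6. Dll4 itself was at 40.0, 38.5 and 42.7 in mutants 2, 3 and 4 and at 33.2, 32.3, 31.7 and 35.2 in WT.

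Hbb-y was at 54.6, 69.3 and 95.8 in Dll4GOF mutants and at 17.3, 24.2, 45.5 and 67.6 in WT 1 to 4. WT 4 lay between mutants 2 and 3. The log2 fold change was 1.07 (SE 0.37, 95% interval 0.25 to 1.89, adjusted p = 0.444). Hba-x was at 20.9, 19.9 and 26.9 in mutants and at 11.0, 8.71, 14.6 and 24.5 in WT (0.69, SE 0.27, 95% interval 0.11 to 1.28, adjusted p = 0.475). For Hba-x, WT 4 again lay inside the mutant range.

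The adult globins of the Dll4GOF experiment pointed the other way. Hbb-bs was at 1345, 1355 and 1494 in mutants and at 2370.1, 1479, 1755 and 3135 in WT (log2 fold change -0.59, SE 0.20, 95% interval -1.02 to -0.15, adjusted p = 0.432). Only WT 2 reached into the mutant range. Hbb-bt (731, 729.9 and 815 in mutants, against 1206, 646, 856 and 1589 in WT), Hba-a1 (784, 703 and 851, against 1171, 677, 877 and 1437) and Hba-a2 (1611, 1642 and 1801, against 2787, 1529.6, 1893 and 3605) had log2 fold changes of -0.42, -0.36 and -0.46, with adjusted p of 0.597, 0.596 and 0.559. All 6 globins overlapped between groups, with 8.95% of all genes free of overlap.

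The fold changes of embryonic and adult globins had opposite signs, and the ratio of the 2 kinds separated the groups. The embryonic share of β-like globin was 2.64, 3.31 and 4.10% in Dll4GOF mutants and 0.494, 1.15, 1.76 and 1.45% in WT, or 3.35 ± 0.731% (SD, n = 3) and 1.21 ± 0.539% (SD, n = 4), 2.76 times as high in mutants. The Hba-x share of α-like globin was 0.642, 0.621 and 0.745% in mutants and 0.203, 0.289, 0.389 and 0.356% in WT. All 3 mutant libraries were above all 4 WT libraries in both, on the α and the β side alike. In all, 4 of 7 shares and ratios did not overlap, the others being the Hbb-y to Hbb-bs ratio and the Hbb-bs share of Hbb-bs and Hbb-bt reads (64.7 to 65.0% in mutants, 66.3 to 69.6% in WT). They share genes and carry no test. Reads of Hbb-y numbered 963 to 1922 in mutants and 322 to 1072 in WT. The erythroid list, of which 6 genes were in the table, summed to 54.9 to 65.9 in mutants and 62.0 to 125 in WT, with 5 of 6 negative and none called.

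The loss and the gain of Dll4 at E15.5 thus had fold changes of the same sign for Hbb-y, and the test of the difference gave loss minus gain of -0.66 (SE 0.52, adjusted p = 0.673). None of the 6 globins was called in it, by limma, edgeR, DESeq2 or voom, with 0.324% of the 13562 shared genes called, and 0 globins and 1612 of all genes were at an unadjusted p under 0.05. All Dll4GOF mutant libraries had an embryonic share above every WT library of their own. With Cdh5-CreERT2 only mutant 4 did, and WT 1 exceeded mutants 2 and 3.

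At E16.5, Efnb2flox;Nfatc1-Cre ventricles gave no globin that was called (0.0296% of 13527 genes were), and the embryonic globins were near the limit of detection. At an unadjusted p under 0.05 there was 1 globin, Hba-a1, and 858 of all genes, and edgeR, DESeq2 and voom called 0. Efnb2, an arterial ephrin ligand, was at 46.2, 48.4, 44.4 and 47.0 in mutants and at 58.6, 80.6, 76 and 55.1 in WT. Hbb-y was at 1.96, 2.56, 1.63 and 1.04 in mutants and at 1.08, 3.28, 0.561 and 1.69 in WT 1, 2, 3 and 5 (log2 fold change 0.21, SE 0.36, 95% interval -0.56 to 0.98, adjusted p = 0.949). Hba-x was at 1.29, 2.44, 1.18 and 1.16 in mutants and at 1.34, 2.21, 1.38 and 0.871 in WT (0.049, SE 0.27, 95% interval -0.54 to 0.64, adjusted p = 0.993). The pseudocount shrinks changes of genes this low. At 5 to 30 Hbb-y and 8 to 20 Hba-x reads a library, a difference within these intervals may have gone unseen.

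Adult globins at E16.5 overlapped between groups throughout, as did all 6 members, with 3.64% of all genes free of overlap. Hbb-bs was at 1316, 2540.5, 1062 and 2200.4 in mutants and at 1487, 2389.8, 1824 and 1799 in WT (-0.14, SE 0.23, adjusted p = 0.945). Hba-a1 was at 859.8, 1259.8, 572 and 1092 in mutants and at 1131, 1126, 1311 and 1319 in WT (-0.43, SE 0.18, 95% interval -0.82 to -0.03, adjusted p = 0.770). Mutants 1 and 3 were below every WT library in all 4 adult globins, whereas mutants 2 and 4 were above every WT library in Hbb-bt and Hba-a2, and mutant 2 also in Hbb-bs. Hba-a2 and Hbb-bt had log2 fold changes of 0.052 and -0.18. The summed erythroid list ran from 41.3 to 117 in mutants and 76 to 108 in WT, and its 6 genes held no call.

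The split between neighbouring copies needs care, as the copies share sequence. The transcripts of Hba-a1 and Hba-a2 were 99.8% identical where they aligned, and 67.5% of the 50-base windows of Hba-a1 occurred in Hba-a2. Hbb-bt and Hbb-bs were 92.7% identical, with 58.3% of Hbb-bt windows in Hbb-bs. The other pairs of members shared no 50-base window, so the embryonic genes stood apart from the adult ones. RSEM divides shared reads by estimate, and the Hbb-bs share of Hbb-bs and Hbb-bt reads came to 47.2 to 67.4% in the Jag1 experiment, 83.0 to 86.2% in the Dll4 E12.5 experiment, 67.6 to 74.5% with Cdh5-CreERT2, 64.7 to 69.6% with Dll4GOF and 73.2 to 77.8% at E16.5. The ranges of the 2 E12.5 experiments were far apart in mutant and WT libraries alike, and the gap between experiments far exceeded that between genotypes. Strains of mice differ in their adult β-globin haplotype, and the haplotype of these embryos was not tested.

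The Hba-a1 share of Hba-a1 and Hba-a2 reads was 47.0 to 72.2% at E12.5, 22.4 to 33.6% at E15.5 and 29.5 to 47.3% at E16.5. At E16.5 it was 41.0, 31.7, 33.9 and 29.5% in mutants and 43.8, 31.6, 44.6 and 47.3% in WT, in 2 bands with a gap between 33.9 and 41.0%. Mutant 1 and WT 1, 3 and 5 made up the upper band. Summed over both copies, adult α-globin was at 9913 ± 4981 in Jag1 mutants and 5164 ± 651 in their WT (SD, n = 4 each), and at 2865 ± 1142 in Efnb2 mutants and 2967 ± 420.4 in their WT (SD, n = 4 each). Summed adult β-globin was at 642 ± 268 in Dll4flox;Nfatc1-Cre mutants (n = 2) and 1871 ± 1237 in their WT (n = 4), and at 2156 ± 132 in Dll4GOF mutants (n = 3) and 3259 ± 1148 in their WT (n = 4).

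**Figure D4:**
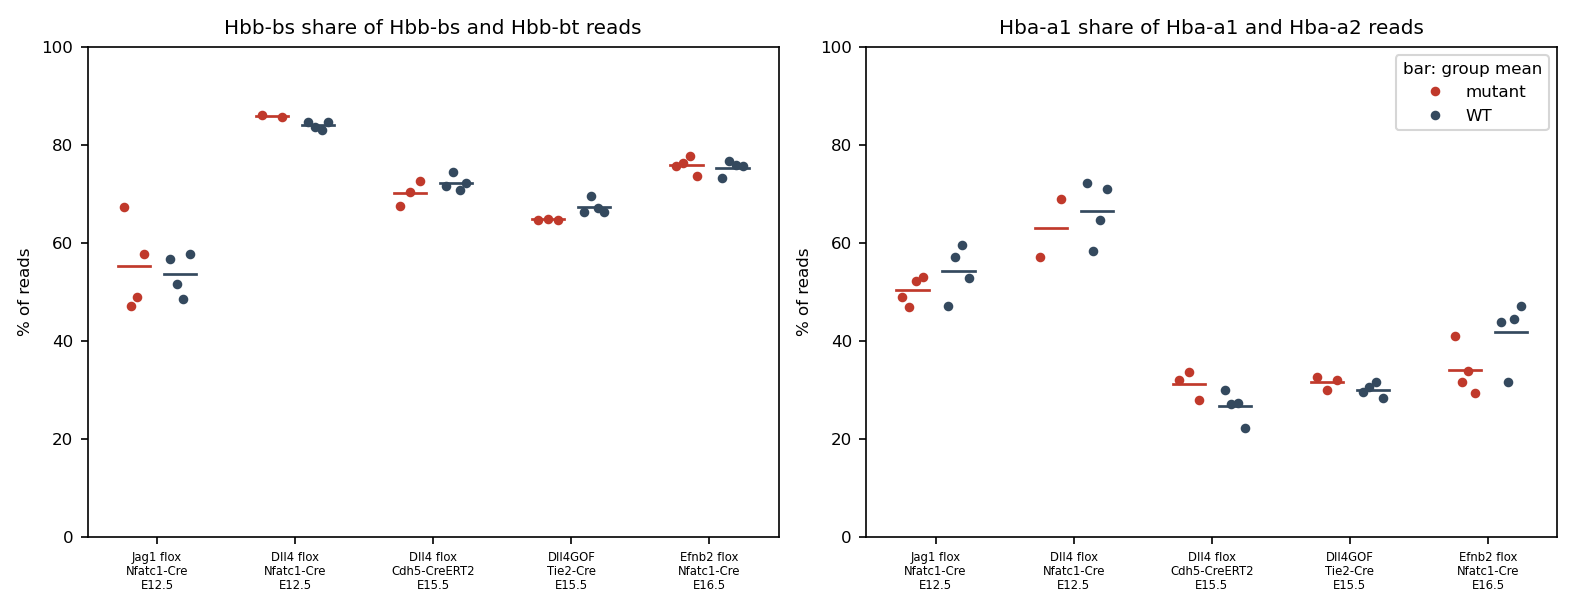
The left panel plots the Hbb-bs share of Hbb-bs and Hbb-bt reads and the right panel the Hba-a1 share of Hba-a1 and Hba-a2 reads, in percent of reads on axes from 0 to 100, with 1 point per library, mutants in red left of WT in dark blue and bars at group means. The Hbb-bs share stays at 83.0 to 86.2% in the Dll4 E12.5 experiment and at 47.2 to 67.4% in the Jag1 E12.5 experiment, for mutants and WT alike.

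Embryonic globins varied together from library to library, and so did adult β-globins, with adult α-globin following both at E12.5. Over all 36 libraries, as deviations of log2 values from the group means, Pearson's r was 0.83 between Hbb-y and Hba-x, which lie on different chromosomes, 0.93 between Hbb-bs and Hbb-bt, 0.88 between Hba-a1 and Hba-a2 and 0.86 between Hbb-bs and Hba-a2. Between Hbb-y and Hbb-bs, which lie in 1 cluster, it was 0.37. Over the 14 E12.5 libraries, Hbb-bh1 went with Hba-x (0.91) and not with Hbb-bs (0.08). At that stage Hba-a1 went with Hbb-y (0.88) and with Hbb-bs (0.75), and Hba-a2 likewise (0.84 and 0.79). Over the 22 libraries of E15.5 and E16.5, Hba-a1 went with Hbb-bs (0.91) and hardly with Hbb-y (0.16). The split was less clear for Hba-x, at 0.42 with Hba-a1, 0.55 with Hba-a2 and 0.55 with Hbb-bs over these libraries. The genes share their libraries, so these are descriptions. Jag1 mutant 4 was the lowest mutant library of its group for every globin, and r was not taken without it. Centring also makes the Dll4flox;Nfatc1-Cre mutants mirror each other.

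Outside the globins, the genes most like Hbb-y in the same measure over 36 libraries were Tmcc2 (0.70), Trim10 (0.70), Tent5c (0.69), Ube2l6 (0.68) and Slc4a1 (0.67), of 12248 genes compared. For Hbb-bs they were Alas2 (0.84), Mkrn1 (0.80), Fam220a (0.71), Akap2 (0.69) and Bpgm (0.68), where Bpgm makes the red cell metabolite that lowers the oxygen affinity of hemoglobin. Hba-a1 was closest to Alas2 (0.90), Bpgm (0.87), Tent5c (0.82), Mkrn1 (0.77) and Fech (0.73), Fech being the enzyme that inserts iron into the porphyrin ring to form heme. For Hbb-bh1, over the 14 E12.5 libraries and 12775 genes, they were Acp5 (0.99), Slc25a37 (0.98), Adra2b (0.97), Epor (0.96) and Kcnn4 (0.96). Slc25a37 is the iron importer of erythroid mitochondria and Epor the erythropoietin receptor.

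**Figure D5:**
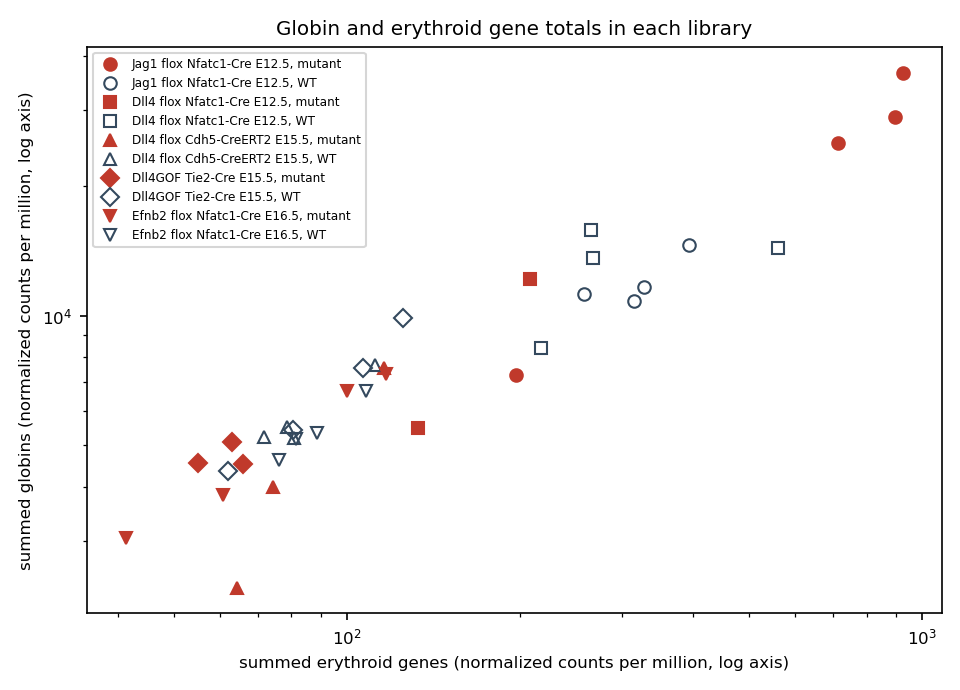
Each point is 1 library, with the summed erythroid list on the x axis and the summed globins on the y axis, both in normalized CPM on log axes, filled red for mutants and open dark blue for WT, with a symbol for each experiment. In the Jag1 experiment mutants 1 to 3 lie above and mutant 4 below the WT libraries on the y axis (sums of 7279 to 36598 in mutants and 10826 to 14591 in WT); the lists hold 14, 14, 10, 6 and 6 erythroid genes in the 5 tables from E12.5 to E16.5, so positions along x compare within an experiment.

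Among other globin genes, Mb, for the myoglobin of heart muscle, was not called in any experiment. It was at 135, 129, 123 and 127 in Jag1 mutants and at 93.5, 120, 119 and 131 in their WT. In the Dll4 E12.5 experiment Mb was at 251 and 233 in mutants and at 93.0 to 223 in WT (log2 fold change 0.64, SE 0.29, adjusted p = 0.242). These groups did not overlap, with 31.5% of all genes free of overlap there. Cygb, for cytoglobin, was not called either. Hbq1b, a θ-globin gene of the α cluster, was measured in both E12.5 tables and was at 9.15, 7.94, 6.56 and 1.09 in Jag1 mutants, against 2.07, 2.05, 2.84 and 2.68 in WT (log2 fold change 0.93, SE 0.45, adjusted p = 0.235). It had mutants 1 to 3 above and mutant 4 below every WT library, as Hba-a1 and Hba-a2 did.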

How the data were processed

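The members and gene lists were chosen with earlier results of these data known. The authors trimmed reads with cutadapt 1.6 after CASAVA 1.8.2, quantified them on GRCm38 transcripts with RSEM (version 1.2.3 per the labels) and normalized the expected counts with limma. The deposited signal is normalized CPM, the rounded expected count plus 0.5 over a scaled library size, and tables were normalized separately. Undoing the scaling gave whole counts within 0.01 for every value. Tables hold 13982, 14302, 13897, 13737 and 13527 genes. The tables hold no comparison columns.

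Mutant was fitted against its own WT with limma 3.58.1 (R 4.3.3) on log2(value + 0.5) with a mean-variance trend, and p was adjusted over the table by Benjamini-Hochberg. The filter of 1 CPM followed the smaller group. Alternatives used edgeR 4.0.16, DESeq2 1.42.0 and voom on recovered counts, other scalings, weights, filters and a pseudocount of 1, and left out each library. In simulated data, the test recovered 100% of 100 genes changed 2-fold in the Jag1 comparison (13872 genes), 90% in Dll4 E12.5 (14170), 100% with Cdh5-CreERT2 (13800), 98% with Dll4GOF (13646) and 97% with Efnb2 (13426). Of 100 genes changed 1.5-fold it recovered 84, 72, 81, 88 and 84% in the same order, and 2.65, 5.26, 8.59, 8.82 and 4.23% of its calls were unchanged genes. Globins varied more between libraries than most genes, so these shares do not describe them. Nothing in the sources gives litters, so p-values measure the spread between pools or embryos. Named genes were the members, other globins, targeted genes, up to 4 per list by p, and the 5 most like Hbb-y, Hbb-bh1, Hbb-bs and Hba-a1 by Pearson r of deviations from group means. Lengths are of principal transcripts in GENCODE M21. Of the 15 erythroid genes, 14 matched an ID. The values of 1 listed erythroid gene are not reported here.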

Additional observations from a re-analysis of the deposited data

Results flagged for a closer look

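A total of 87 sets of 4 library values were checked, each for 1 gene or share in 1 group. The sets reuse the same libraries, so the rate of about 1 in 20 that chance gives for independent sets does not apply. In 7 sets, 1 library stood far from the others. At E12.5 these were Hbb-bt in Jag1flox;Nfatc1-Cre mutant 4 (332, others 940.2 to 1039.8), Hbb-y in WT 4 of the same experiment (5461, others 4176 to 4332) and Hba-x in WT 3 of the Dll4 experiment (1848, others 511 to 615). In the Cdh5-CreERT2 experiment at E15.5, Hbb-bs was high in WT 4 (2402, others 1602 to 1686). There the embryonic share of β-like globin was high in WT 1 (2.35%, others 1.12 to 1.3%), as was its Hba-x share of α-like globin (0.383%, others 0.209 to 0.233%). At E16.5, Hba-x was high in Efnb2flox;Nfatc1-Cre mutant 2 (2.44, others 1.16 to 1.29), on 20 reads.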

How the results depend on the processing

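The limits are few replicates (2 to 4 mutant libraries), pools without litter data, and few embryonic reads at E16.5. No globin was called under any alternative with Dll4GOF or Efnb2. In the Jag1 experiment, edgeR called 1 globin, DESeq2 called 2, and leaving out a library gave 0 to 6. Leaving out a library gave 0 to 2 with Cdh5-CreERT2 and 0 to 1 for the Jag1 minus Dll4 difference. Whether replicate numbers pair the libraries is not given in the sources, and r of same-numbered deviations was -0.13 to 0.23. In Dll4 E12.5 the deviations of the 2 mutant libraries mirror each other, so r cannot decide it there. With Dll4GOF, r was 0.20 and 0.23 for numbers 2 and 4 and -0.029 for number 3. The replicate block gave 2 calls in Dll4 E12.5, Hbb-bt and Hbb-bs, and no other globin call. The block turned Hbb-bh1 to 0.23 and Hba-x to 0.31 in Dll4 E12.5, and Hba-x to -0.027 and Hba-a2 to -0.20 at E16.5. Library quality weights turned Hba-x to -0.040 and Hba-a2 to -0.037 at E16.5. The cause was not tested.

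Leaving out a library moved log2 fold changes across 0 in Dll4 E12.5 (Hbb-y -0.97 to 0.33, Hbb-bh1 -0.67 to 0.20, Hba-x -0.49 to 0.28, Hba-a2 -1.38 to 0.28), with Cdh5-CreERT2 (Hba-a1 -0.75 to 0.24, Hbb-bt -0.87 to 0.053) and at E16.5 (Hbb-y -0.083 to 0.53, Hbb-bs -0.35 to 0.074, Hba-x -0.15 to 0.22, Hba-a2 -0.15 to 0.27, Hbb-bt -0.37 to 0.086). Without Hbb-bt, the WT embryonic share of the Jag1 experiment was 87.4%, against 79.8% with it, since fewer adult genes remained. Calls over all genes ranged over the alternatives from 17 to 1108 (Jag1), 29 to 885 (Dll4 E12.5), 5 to 791 (Cdh5-CreERT2), 0 to 37 (Dll4GOF) and 2 to 25 (Efnb2), and from 1 to 207 and 1 to 492 in the differences at E12.5 and E15.5.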
